A study of Arabidopsis thaliana with 18 samples.

Results

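GC1 and FAMA are genes of stomatal guard cells, and their transcript levels were followed in whole rosettes of *Arabidopsis thaliana* across 6 groups of genotype and time. The members were the probe sets of these 2 genes on the array. GC1 was found by its locus, since the annotation lists that locus without the name GC1. GC1 (AT1G22690) and FAMA (AT3G24140, listed under the symbol FMA) had 1 probe set each, so 2 of the 22746 probe sets tested are described. In the annotation the name GC1 belongs to 3 unrelated genes, a golgin candidate, a guanylyl cyclase and the plastid division gene SULA. For these, 0 probe sets are named. The transcripts were hybridised to Affymetrix expression arrays, and every level below is a log2 expression value as deposited, normalized by robust multi-array averaging (RMA).

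Stomata are the pores through which leaves exchange gas, and each is framed by a pair of guard cells that open it in light. FAMA is a basic helix-loop-helix (bHLH) transcription factor that stops the division of guard mother cells and sets guard cell identity. GC1 belongs to the family of small gibberellin-regulated GASA proteins and is known chiefly for its promoter, which is widely used to express genes in guard cells. In chloroplasts, the thylakoid kinase STN7 is activated when the plastoquinone pool is reduced, and light that drives photosystem II more than photosystem I reduces that pool.

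Arrays covered the knockout line SALK_073254, called stn7 here, and its background Col-0 as wild type (WT), each at 0, 30 and 60 min, with 3 biological replicates a group and 18 arrays in all. Plants grew in continuous white light at 35 µE for 20 days and then in photosystem I light for 3 days. The 0 min samples were taken in that light, and the others after a move to photosystem II light. Rosette leaves were 23 days old, and a sample pooled at least 250 plants. The stn7 mutant is 1 insertion line, and it served the submitters as a control that does not perceive plastoquinone signals. All groups shared the pretreatment, and no group stayed in photosystem I light for 30 or 60 min, so an effect of the light and one of harvest time cannot be told apart. The 30 and 60 min comparisons of a genotype share its 0 min arrays. In leaf extracts, fewer guard cells and less of a transcript per guard cell cannot be told apart.

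Arrays of the same group correlated at r = 0.9896 to 0.9967 over all probe sets. A component of variation inside the groups, taken from the residuals around the group means, held 28.0% of the within-group variance and also differed between groups. It averaged 32.9 ± 20 (SD, n = 3) in WT at 0 min, where replicates 1 and 3 scored 43.0 and 45.7 and replicate 2 scored 9.86. The other group means lay between -15.4 and 15.1. The difference between 3′ and 5′ control probe sets, a measure of how complete the labelled RNA was, averaged 1.05 ± 0.028 in WT and 1.11 ± 0.16 in stn7 at 60 min (SD, n = 3), against 0.874 to 0.928 in the other 4 groups. Both measures were used as covariates in further fits. Array scores on the component kept the differences between groups, and the 3′ to 5′ difference also varied with group. A fit with either covariate can therefore also take out a real change between groups. Where a call was lost with a covariate, the part of the covariate and that of light or genotype cannot be told apart.

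GC1 was lower in stn7 at 30 min than at 0 min and higher at 60 min than at 30 min, while no change in WT passed the threshold. Across the 6 groups it differed at an adjusted p of 0.000512 (limma F test, adjusted by Benjamini-Hochberg over all probe sets), in a test that 47.1% of all probe sets passed at 0.05. The WT arrays read 6.26, 6.02 and 6.52 at 0 min, with a mean of 6.26 ± 0.25 (SD, n = 3, as for every group mean of a gene below). At 30 min the WT arrays read 6.34, 6.40 and 5.99, a mean of 6.25 ± 0.22. At 60 min they read 6.40, 6.61 and 6.76, a mean of 6.59 ± 0.18. The ranges of neighbouring WT times overlapped.

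In stn7, the arrays at 0 min read 6.06, 6.75 and 6.50 for GC1, a mean of 6.44 ± 0.35. At 30 min the 3 arrays read 5.79, 5.70 and 5.63, a mean of 5.71 ± 0.08, and all lay below every other array of the study. At 60 min they read 6.66, 7.13 and 7.02, a mean of 6.94 ± 0.24. This was the group with the highest mean, and 2 of its arrays lay above all 9 WT arrays. From lowest to highest, the group means ran stn7 at 30 min, WT at 30 min, WT at 0 min, stn7 at 0 min, WT at 60 min and stn7 at 60 min. Only the first step in that order separated groups whose ranges did not overlap, and the 18 arrays spanned 1.5 log2 units.

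**Figure D1:**
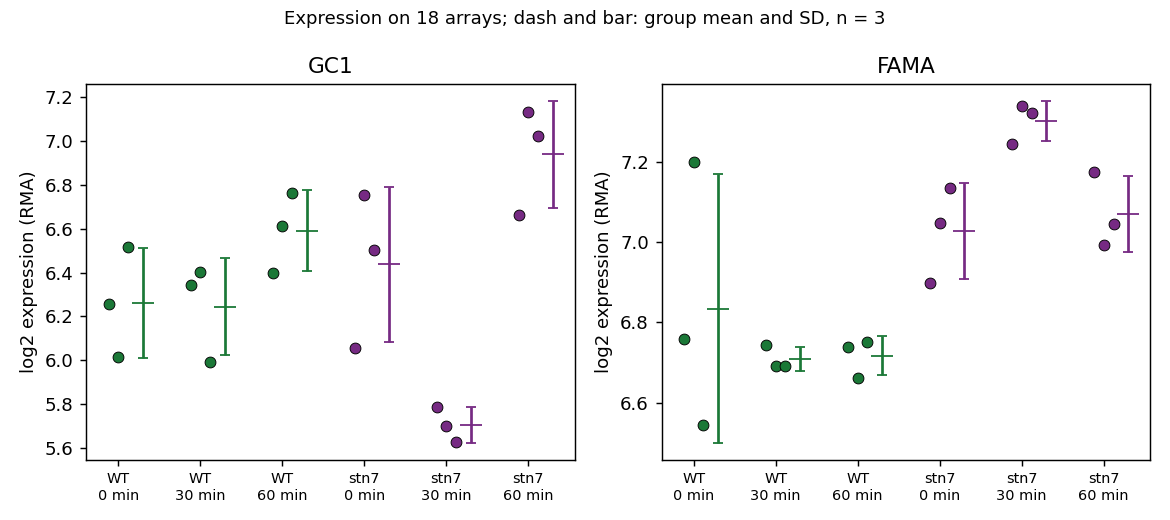
Log2 expression (RMA, y axis) of GC1 and FAMA on each of the 18 arrays by genotype and time (x axis); dots are arrays and the dash with its bar is the group mean ± SD (n = 3). GC1 is lowest in stn7 at 30 min (5.63 to 5.79), and for FAMA 8 of the 9 WT arrays lie below all stn7 arrays. The y axes do not start at 0.

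GC1 fell by 0.73 ± 0.17 (SE) on the log2 scale from 0 to 30 min in stn7, 1.66-fold, with an adjusted p of 0.0153 in limma. In that comparison 7.25% of all probe sets were called, and 3.78% of all were called lower. The call was lost without stn7 0 min replicate 2 (adjusted p 0.0788) or replicate 3 (0.0592), and without stn7 30 min replicate 2 (0.0506) or replicate 3 (0.0705), with the change between -0.92 and -0.57 over all single arrays left out. From 30 to 60 min GC1 rose 2.35-fold in stn7, by 1.23 ± 0.17 (SE), with an adjusted p of 0.000305, rank 92 of all probe sets by p. Here 16.3% of probe sets were called, and 7.36% were called higher. Leaving out any 1 array kept this rise between 1.14 and 1.37, with the adjusted p at most 0.00321.

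The rise of GC1 from 30 to 60 min went with the 3′ to 5′ difference, which read 0.937, 1.12 and 1.26 on the stn7 arrays at 60 min and averaged 0.895 ± 0.049 at 30 min (SD, n = 3). With the mean of the 6 control pairs as a covariate the rise was 0.84, with an adjusted p of 0.0305, and with the 3 Arabidopsis control pairs alone it was 0.84 with an adjusted p of 0.0547. The second covariate was chosen after seeing the data. The 6-pair difference was itself higher at 60 min in both genotypes, so its part in the rise and that of time cannot be told apart. The fall at 30 min was -0.67 with an adjusted p of 0.0112 under the 6-pair covariate. In WT, GC1 at 60 min exceeded 0 min by 0.33 ± 0.17 (SE, adjusted p 0.165) and by 0.04 with that covariate.

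**Figure D2:**
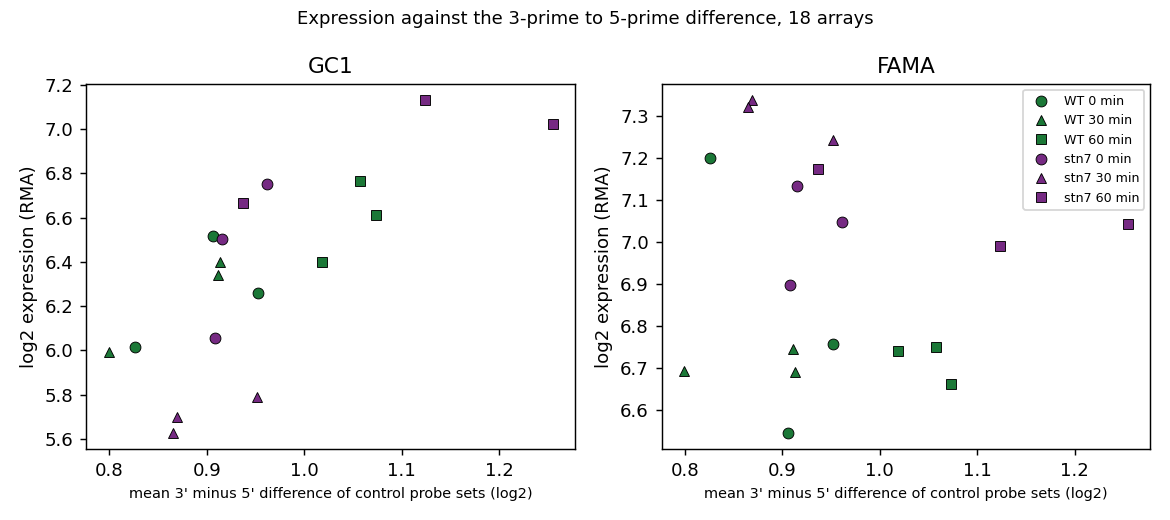
Log2 expression of GC1 and FAMA (y axis) against the mean log2 difference between 3′ and 5′ control probe sets (x axis) on the 18 arrays, coloured by genotype and shaped by time. Of the 6 arrays at 60 min 5 lie at the right, where GC1 is high, the other being stn7 replicate 1 at a 3′ to 5′ difference of 0.937, and the stn7 arrays at 30 min are low for GC1 at a 3′ to 5′ difference that other groups share.

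The remaining GC1 comparisons within a genotype did not pass the threshold. In WT the change from 0 to 30 min was -0.02 (95% interval -0.38 to 0.34, adjusted p 0.961), and from 30 to 60 min it was 0.35 (-0.02 to 0.71, adjusted p 0.409). With the 6-pair 3′ to 5′ covariate the change from 30 to 60 min was 0.0159 (adjusted p 0.999), and with the within-group component it was 0.35, while that at 60 against 0 min was 0.73 with the component (adjusted p 0.0743). These comparisons called 27.6% and 1.13% of probe sets, and 32.7% were called in WT at 60 against 0 min. At 60 against 0 min stn7 was 0.50 ± 0.17 (SE) higher with an adjusted p of 0.0551 and overlapping ranges, where 16.6% of probe sets were called. This value lay close to the threshold, and 5 of 12 other settings and 5 of the 18 fits without 1 array put it past 0.05. With the 6-pair 3′ to 5′ covariate it was 0.17 (adjusted p 0.651), with the 3-pair one 0.21 (0.573) and with the within-group component 0.35 (0.184).

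Between genotypes GC1 differed by no called amount. At 30 min all 3 stn7 arrays lay below the 3 WT arrays, with a difference of -0.54 ± 0.17 (SE) and an adjusted p of 0.122, in a comparison that called 1.78% of probe sets. The 30 min difference was -0.535 (adjusted p 0.0547) with the within-group component as a covariate. It was -0.58 (0.0533) with the 6-pair 3′ to 5′ covariate and -0.63 (0.0544) with the 3-pair one, close to the threshold but not past it. At 0 min the difference was 0.17 (adjusted p 0.521; 15.9% called) and at 60 min it was 0.35 (adjusted p 0.212; 13.1% called). Averaged over the 3 times it was -0.01, with a 95% interval of -0.22 to 0.20. With the within-group component as a covariate the difference at 0 min was 0.48 (adjusted p 0.408) and at 60 min 0.0935 (0.865), and with the 6-pair 3′ to 5′ covariate they were 0.11 (0.645) and 0.24 (0.332). The response at 30 min differed between stn7 and WT by -0.71 ± 0.24 (SE) and did not pass (adjusted p 0.118), where 2.04% of probe sets were called. At 60 min that difference was 0.17 (adjusted p 0.672; 22.4% called). The change from 30 to 60 min, compared between the genotypes after the data were seen, was 0.89 ± 0.24 larger in stn7, with an unadjusted p of 0.00192 and an adjusted p of 0.148. Only 5 probe sets, 0.022%, were called in it. GC1 passed here in 2 of 12 other settings, with array weights (0.98, adjusted p 0.0259) and with only the groups compared (0.89, 0.0384). In 0 of the 18 fits without 1 array did it pass. In the main fit the fall and rise of GC1 in stn7 were thus not shown to differ from WT.

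FAMA was higher in stn7 than in WT. Averaged over the 3 times the difference was 0.38 ± 0.07 (SE) on the log2 scale, 1.30-fold, with a 95% interval of 0.23 to 0.53 and an adjusted p of 0.0030 in limma. In this comparison 10.1% of all probe sets were called, 6.32% higher, and FAMA was rank 357 by p. The F test over the 6 groups gave FAMA an adjusted p of 0.0037. The direction and the call held in all 18 fits without 1 array (0.33 to 0.44) and in all 12 other settings, where the smallest value was 0.26, without the 2 WT 0 min arrays that stood apart.

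The WT arrays read 6.76, 7.20 and 6.55 for FAMA at 0 min, a mean of 6.83 ± 0.33. At 30 min they read 6.74, 6.69 and 6.69, a mean of 6.71 ± 0.03, and at 60 min 6.74, 6.66 and 6.75, a mean of 6.72 ± 0.05. The 6 WT arrays after the shift thus lay close together, and WT at 0 min was widely spread. The stn7 arrays read 6.90, 7.05 and 7.13 at 0 min, a mean of 7.03 ± 0.12. At 30 min they read 7.24, 7.34 and 7.32, a mean of 7.30 ± 0.05, and at 60 min 7.18, 6.99 and 7.04, a mean of 7.07 ± 0.09. Of the 9 WT arrays, 8 lay below all 9 stn7 arrays, and the exception was WT 0 min replicate 2 at 7.20.

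At 30 min FAMA was 1.51-fold higher in stn7, by 0.59 ± 0.12 (SE), with an adjusted p of 0.0222, and the 3 arrays of each genotype did not overlap. This comparison called 404 probe sets, 1.05% of all as higher. The call was lost without WT 30 min replicate 1 (adjusted p 0.0541), 2 (0.0674) or 3 (0.0559) and without stn7 30 min replicate 2 (0.0784) or 3 (0.0979), although the difference stayed between 0.57 and 0.62. At 60 min the difference was 0.35 ± 0.12 (SE, adjusted p 0.0674), also without overlap. At 0 min it was 0.19 ± 0.12 (SE, adjusted p 0.297) with overlapping ranges. That value rested on single WT arrays: it was 0.38 with an adjusted p of 0.0140 without replicate 2, and -0.17 without replicates 1 and 3, the arrays high on the within-group component.

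FAMA did not change with time by a called amount in either genotype. In WT it moved by -0.13 (95% interval -0.39 to 0.13, adjusted p 0.52) at 30 min and by -0.12 (-0.38 to 0.14, adjusted p 0.52) at 60 min, and from 30 to 60 min by 0.01 (adjusted p 0.989). In stn7 the 30 min arrays all lay above the 0 min arrays, by 0.27 ± 0.12 (SE, adjusted p 0.198), and above the 60 min arrays, with a change of -0.23 ± 0.12 from 30 to 60 min (SE, adjusted p 0.232). With the 6-pair 3′ to 5′ covariate that change was -0.0692 (adjusted p 0.872), and with the within-group component -0.15 (0.699). At 60 against 0 min stn7 differed by 0.04 (adjusted p 0.874). The genotype difference of the 30 min response was 0.40 ± 0.18 (SE, adjusted p 0.209), and of the 60 min response 0.16 (adjusted p 0.569), which was 0.34 (adjusted p 0.756) with the component as a covariate. In order of their means the groups ran WT at 30, 60 and 0 min and then stn7 at 0, 60 and 30 min, and stn7 at 30 min was the only group that did not overlap its neighbour.

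**Figure D3:**
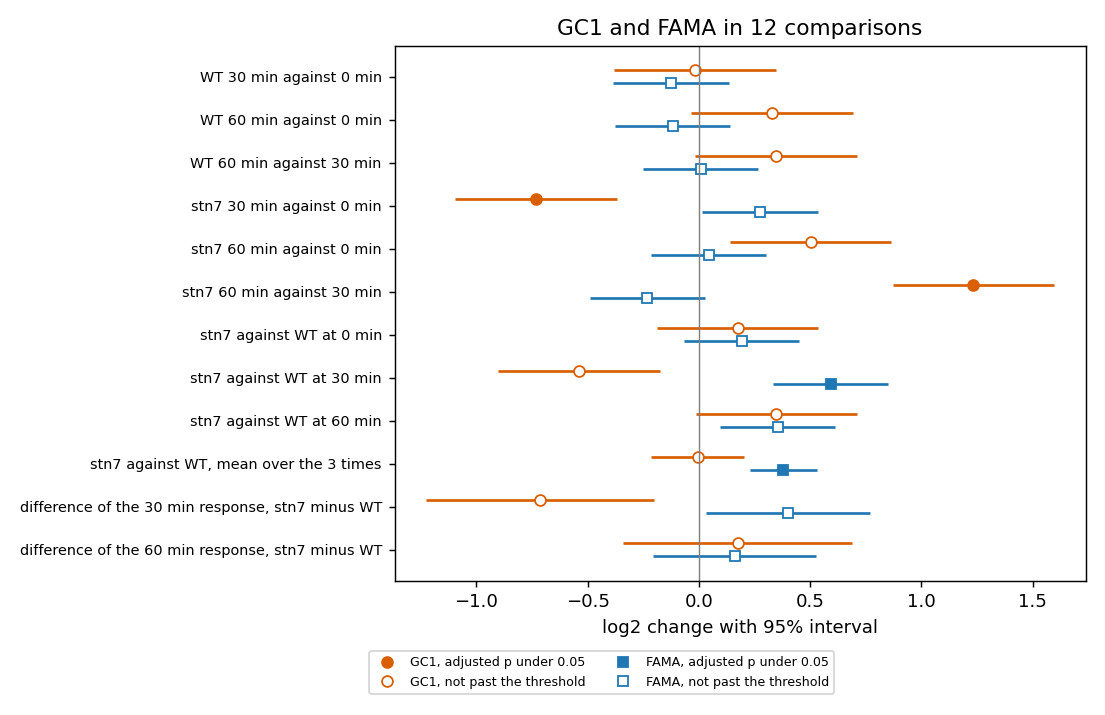
Log2 change (x axis) of GC1 (circles) and FAMA (squares) in the 12 comparisons (y axis), with 95% intervals from limma; filled symbols have an adjusted p under 0.05. Filled symbols mark GC1 in stn7 at 30 against 0 min and at 60 against 30 min, and FAMA in stn7 against WT at 30 min and over the 3 times.

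Between 0 and 30 min in stn7 the values of the 2 genes thus moved in opposite directions, GC1 by -0.73 with a call and FAMA by 0.27 without one. Over the 18 arrays they correlated at r = -0.35, given as a description of arrays that fall into 6 groups. Neither member passed in any of the 3 WT time comparisons, where limma called 0 of 2 and 0 of 2 had an unadjusted p under 0.05. Of all probe sets, 27.6% were called there at 30 against 0 min and 32.7% at 60 against 0 min. At 60 against 30 min 1.13% were called. A count over 2 genes cannot be told apart from these shares.

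Other genes of guard cells and of the stomatal lineage gave 2 further patterns. Of 17 listed guard cell markers, 4 had a probe set naming them alone: GC1, FAMA, the blue-light signalling kinase BLUS1 and the cation exchanger CHX20. In stn7 from 30 to 60 min 1 rose, GC1, and 1 fell, BLUS1, and the median change of the 4 was -0.16, against 0.01 over all probe sets, of which 16.3% were called. CHX20, whose group means lay between 5.86 and 6.17, passed in 0 comparisons. BLUS1 averaged 4.76 ± 0.57, 5.80 and 6.02 in WT at 0, 30 and 60 min, and 5.87, 6.001 and 4.85 ± 0.52 in stn7.

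BLUS1 thus rose in WT, by 1.04 at 30 min (adjusted p 0.00507) and 1.26 at 60 min (adjusted p 0.000872), and fell by 1.15 from 30 to 60 min in stn7 (adjusted p 0.00528). Its WT 0 min arrays read 4.61, 5.39 and 4.28, low where the within-group component was high. With that component as a covariate the WT changes were 0.21 and 0.43 and the stn7 change was -0.62 (adjusted p 0.135), and none of the 3 passed. The 60 min response of BLUS1 differed between the genotypes by -2.28 ± 0.35 (SE, adjusted p 0.00062), and by -1.14 (adjusted p 0.425) with the covariate. Between genotypes limma called BLUS1 higher in stn7 at 0 min (1.11, adjusted p 0.00965) and lower at 60 min (-1.17, 0.00646). Over all probe sets 15.9% and 13.1% were called there. Of 11 settings that did not leave out a single array, 3 and 1 lost these calls.

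Of 20 stomatal lineage genes 4 were measured. SPCH, which starts the lineage, passed in 0 comparisons (group means 4.79 to 5.04), and MUTE, which ends the divisions that precede the guard mother cell, averaged 4.33 ± 0.15 at 0 min and 3.72 ± 0.19 at 60 min in WT, a fall of 0.61 ± 0.13 (SE, adjusted p 0.00187). Its mean signal of 3.98 lay at percentile 24.2 of all probe sets and below 4.31, the level under which the filter at percentile 30 left probe sets out, so it was not tested under that filter. In stn7 at 60 against 0 min MUTE moved by -0.09 (adjusted p 0.716). EPFL9, the secreted peptide STOMAGEN that raises stomatal density, fell in both genotypes, in WT by 0.84 at 30 min (adjusted p 0.000628) and by 0.95 at 60 min (0.000103), and in stn7 by 0.70 (0.00695) and 0.47 (0.032). With the within-group component as a covariate the WT falls were 0.49 and 0.60 and did not pass (adjusted p 0.373 and 0.0836). The stn7 call at 60 min was lost without stn7 0 min replicate 2 (0.104) or 3 (0.126) and without stn7 60 min replicate 1 (0.163) or 2 (0.0519). In WT at 60 min 2 of the 4 lineage genes fell, EPFL9 and the low-signal MUTE, and 0 rose. The median change was -0.36, against -0.05 over all probe sets, of which 32.7% were called in either direction. So few genes do not show a shared fall of the lineage. Among 26 genes of stomatal opening and closure only PATROL1, which moves proton pumps to the guard cell membrane, was measured, and it rose by 0.41 in WT at 60 min (adjusted p 0.00958). With the component as a covariate this change was 0.20 (adjusted p 0.593). Between genotypes limma called MUTE lower in stn7 at 0 min (-0.41, adjusted p 0.0468) and PATROL1 higher (0.39, 0.0297), where 15.9% of probe sets were called. EPFL9 was higher in stn7 at 60 min (0.48, adjusted p 0.0377), where 13.1% were called. Of the 18 fits without 1 array, 12, 4 and 5 lost the calls of MUTE, PATROL1 and EPFL9. None of the 17 abscisic acid signalling genes listed was measured.

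**Figure D4:**
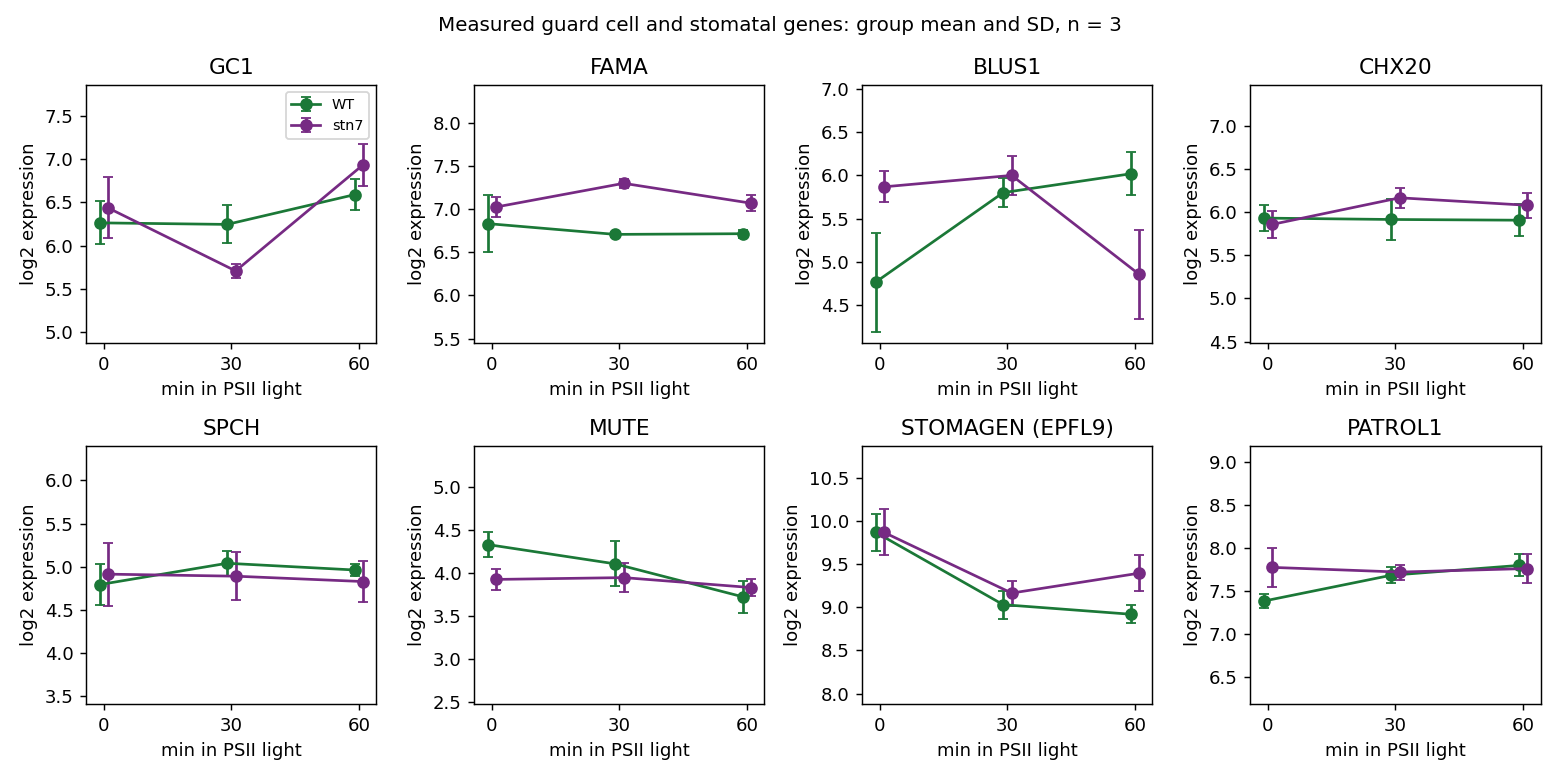
Group means ± SD (n = 3) of log2 expression (y axis) over time in min (x axis) for the measured guard cell and stomatal genes, with WT and stn7 in separate colours. The EPFL9 means at 30 and 60 min lie below the 0 min mean of 9.87 in both genotypes, and the BLUS1 means run upward in WT and downward in stn7 by 60 min.

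Relatives of the 2 genes were taken from lists of their families. Of the GASA family, to which GC1 belongs, 6 of 15 were measured. GASA10 fell in WT by 1.32 at 30 min and 1.51 at 60 min (adjusted p 0.000366 and 3.89e-05), and in stn7 by 0.81 and 0.68 (0.0232 and 0.0292). GASA7, GASA8, GASA11 and GASA12 passed in 0 comparisons, and of the 6 measured members 1, GC1, rose in stn7 from 30 to 60 min, where 7.36% of all probe sets were called higher. The GASA10 call in stn7 at 30 min was lost without replicate 2 or 3 of either group compared, and at 60 min without replicate 2 or 3 at 0 min or any 60 min replicate, with adjusted p values up to 0.143 and 0.0895. Of the bHLH subfamily of FAMA, 7 of 10 were measured. BHLH057 fell in all 4 comparisons with 0 min, in stn7 by 1.07 and 1.09 (adjusted p 2.95e-05 and 5.94e-06), and BHLH094 fell in WT by 0.37 and 0.50 (0.0208 and 0.00215). BHLH094 also lay below that filter, at percentile 26.2 of mean signal. BHLH067 rose in stn7 from 30 to 60 min by 0.51 (adjusted p 0.0108), and BHLH099 by 0.36 (0.0376). The BHLH067 call was lost without stn7 30 min replicate 2 (adjusted p 0.0601), and the BHLH099 call without any stn7 30 min replicate or 60 min replicate 1 or 2 (0.0616 to 0.178). The BHLH094 call in WT at 30 min was lost without WT 0 min replicate 1 (0.069) or 3 (0.0789) or WT 30 min replicate 2 (0.105). With the within-group component as a covariate, the WT changes of GASA10 were -0.76 at 30 min (adjusted p 0.271) and -0.95 at 60 min (0.0386), and those of BHLH094 were -0.0852 (0.919) and -0.22 (0.503). The BHLH057 change in WT at 30 min was then -0.51 (0.251). With the 3′ to 5′ covariate the changes of BHLH067 (0.41) and BHLH099 (0.46) did not pass. Over all probe sets, 27.6% and 32.7% were called in WT at 30 and 60 against 0 min, and 7.25% and 16.6% in stn7. In WT 2 and 3 of the 7 measured bHLH genes and 1 and 1 of the 6 GASA genes were called, all lower. Counts over so few genes cannot be told apart from these shares.

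Markers of other leaf cells were also looked up. Of 25 such genes 3 were measured, and the 8 epidermis markers had 0. The mesophyll gene RCA, rubisco activase, lay between 12.96 and 13.11 and the trichome gene TRY between 4.02 and 4.23 in the group means, and neither passed in any comparison. SWEET11, a sucrose exporter of the phloem, fell in WT by 0.55 at 30 min (adjusted p 0.00309) and 0.70 at 60 min (0.000323). With the within-group component as a covariate these were -0.30 and -0.44 and did not pass (adjusted p 0.596 and 0.159). Between genotypes, limma called SWEET11 lower in stn7 at 0 min (-0.45, adjusted p 0.0207) and higher at 60 min (0.41, adjusted p 0.0344). These calls were lost in 3 and 5 of the 18 fits without 1 array. The 2 differences had opposite signs, and over the 3 times SWEET11 differed by 0.03. It did not pass in the comparisons where GC1 or FAMA was called. With 3 of 25 markers measured, and SWEET11 itself called in WT over time, these values do not measure cell type shares. The part of cell type shares in the GC1 and FAMA results was not tested.

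The transcripts whose levels were most like those of each gene were ranked by Pearson r over the 18 arrays, among probe sets with a single named gene. For GC1 the first was KIWI, a transcriptional coactivator, at r = 0.93, and 0.82 within groups. KIWI averaged 7.20, 7.09 and 7.46 in WT and 7.17, 6.76 and 7.71 in stn7 at 0, 30 and 60 min. The next were AT2G19680 at 0.868, AT5G15910 at 0.863 and AT5G64850 at 0.859, and AT3G28120, AT5G60400, AT1G67950, AT5G25170, AT1G54050 and AT3G50900 followed at 0.843 to 0.820. GC1 itself correlated with the 3′ to 5′ difference at r = 0.76 over the 18 arrays, against -0.12 for FAMA. The arrays share their preparation and the group structure, so these values carry no test.

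For FAMA the first was AT1G17850 at r = 0.874, followed by AT5G46420 at 0.850, AT3G49000 at 0.842 and AT3G02300 at 0.841. AT3G51670, ETL1, AT5G24690, AT1G70190, psbF and AT1G36320 followed at 0.835 to 0.793. None reached 0.9 over the 18 arrays, against 2 probe sets for GC1. Over the 6 group means, where few points make high values common, 99 probe sets reached 0.9 with GC1 and 112 with FAMA. The first there were AT2G17340 at 0.993, AT2G43800 at 0.978 and KIWI at 0.976 for GC1, then AT3G28120, AT1G50575, NRPB6B, TBL28, AT2G02210, AT2G04845 and AT3G56290. For FAMA they were AT1G68875 at 0.990, AT1G48450 at 0.982 and FZL at 0.976, then AT4G26870, AT5G24690, AT5G03430, AT4G36390, AT1G09300, AT1G06560 and AT1G63210.

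**Figure D5:**
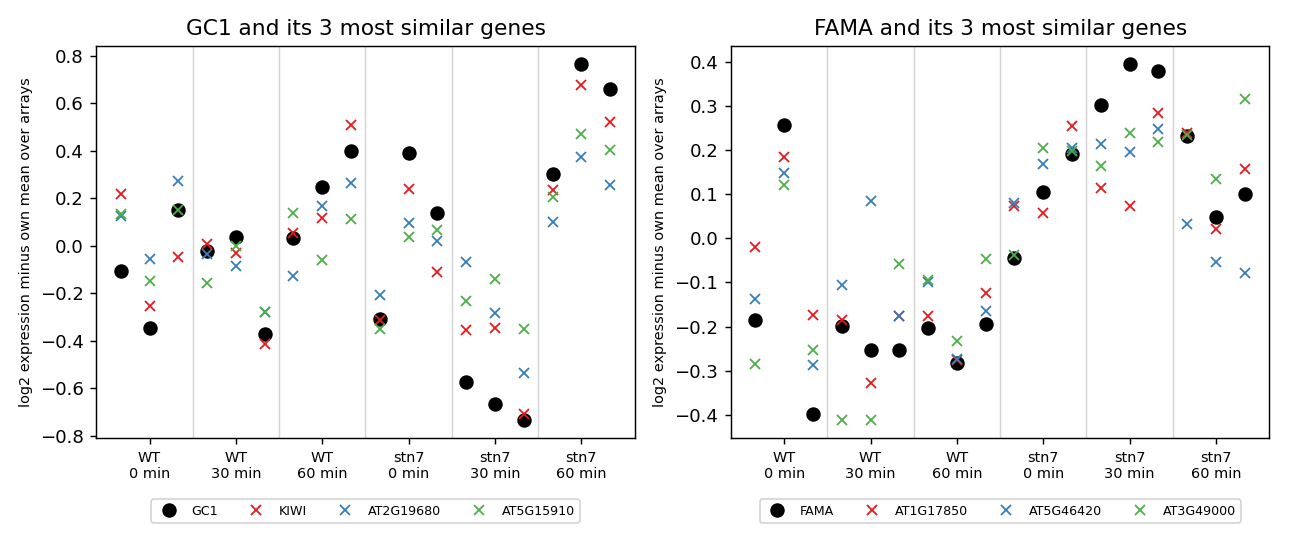
Log2 expression minus each gene's own mean over the arrays (y axis) on the 18 arrays by group (x axis), for GC1 and FAMA (filled circles) and the 3 genes with the highest Pearson r to each (crosses). KIWI shares the low values of GC1 in stn7 at 30 min and the high ones at 60 min, and AT1G17850 is mostly low in WT and high in stn7 like FAMA.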

How the data were processed

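Values were the log2 expression values that the authors deposited for 18 one-colour arrays; per the submitters' processing notes, GCOS, Affymetrix Expression Console 1.1 and RMA were used, with settings not given in the sources used here. Array medians ran from 6.10 to 6.31. Of 22810 probe sets, 64 controls were removed and 22746 tested. The platform annotation gave 13513 probe sets 1 gene, 503 several and 8730 none listed here, and 13436 of the first matched the RefSeq gene table (TAIR10.1). GC1 and the list genes without an annotated symbol were found by locus. limma 3.58.1 (R 4.3.3) fitted 1 mean per group on all arrays, with Benjamini-Hochberg adjustment over all probe sets in each comparison and a threshold of 0.05, and was tested on simulated data. Genes were named if they were members, list genes that passed (otherwise up to 4 with the smallest p), or among the 10 most similar to a member. Members and the 11 lists (137 genes, 22 measured) were chosen with earlier results of these data known. The labels do not say whether arrays with the same replicate number were handled together, and the main fit did not pair them. Residuals of 13 of 45 same-number pairs correlated above 0.1. The median r was -0.072 for same-number pairs and 0.004 for pairs with other numbers. These values cannot decide whether the arrays were paired. The replicates are labelled biological, and no batch was given. Alternatives changed scaling, filters, variance model, array weights, covariates, the arrays fitted and the replicate block. The number of arrays limits the precision.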

Additional observations from a re-analysis of the deposited data

Results flagged for a closer look

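In 3 of the 22 measured genes of the lists limma called a difference in the response from 0 to 60 min, as stn7 minus WT. BLUS1 differed by -2.28 ± 0.35 (SE, adjusted p 0.00062), FTSZ2-2, a plastid division gene, by -0.47 ± 0.16 (adjusted p 0.048) and SWEET11 by 0.86 ± 0.17 (adjusted p 0.00232). In this comparison 22.4% of all probe sets were called, and 3 of 22 genes cannot be told apart from that share. With the within-group component as a covariate, limma called 0 probe sets, and the values were -1.14 for BLUS1, -0.22 for FTSZ2-2 and 0.51 for SWEET11. Without the WT 0 min arrays high on that component they were -1.64 (adjusted p 0.0290), -0.29 (0.446) and 0.89 (0.0400). The part of that component was not tested further. GC1 (0.17) and FAMA (0.16) did not pass in this comparison. The FTSZ2-2 call was also lost in 13 of the 18 fits without 1 array, with adjusted p values up to 0.117, and in 9 of the 12 other settings.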

How the results depend on the processing

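FAMA over the 3 times and GC1 in stn7 at 30 against 0 min kept their call in all 12 settings that did not leave out a single array; 2 of these, the 3-pair covariate and the fit without both high WT 0 min arrays, were chosen after seeing the data. For GC1, the 3-pair 3′ to 5′ covariate gave 0.84 (not called) for stn7 60 against 30 min. GC1 in WT at 30 min turned to 0.39 with the within-group component, 0.0203 and 0.0369 with the 6-pair and 3-pair covariates and 0.23 without both high WT 0 min arrays. GC1 in stn7 at 60 against 0 min passed with median centring (0.51), with low signal left out up to the 30th percentile (0.50) or the median (0.50), array weights (0.47) and without both arrays (0.50). Array weights also made calls of GC1 between genotypes at 30 min (-0.57), of its 30 min response (-0.84) and of its change from 30 to 60 min (0.98; 0.89 in the fit of only the groups compared). The GC1 genotype mean turned to 0.035 with array weights, 0.0118 with the component and 0.0765 without both arrays, and the difference of its 60 min response to -0.38 and -0.0737. For FAMA in WT, 60 against 0 min was 0.0023 with the 6-pair covariate and was called at -0.48 without both arrays, and 60 against 30 min turned to -0.0156 with quantile and -0.0159 with median scaling and -0.000546 with array weights. FAMA between genotypes was -0.17 at 0 min without both arrays, and at 60 min passed with the median filter (0.35), array weights (0.33), the 6-pair covariate (0.40), only the groups compared (0.35) and without both arrays (0.35).

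Leaving out 1 array gave these ranges for GC1: -0.14 to 0.11 in WT at 30 min, -0.92 to -0.57 and 0.31 to 0.66 in stn7 at 30 and 60 against 0 min, -0.0585 to 0.0574 for the genotype mean and -0.0166 to 0.33 for the difference of the 60 min response. For FAMA they were -0.27 to 0.0576, -0.26 to 0.0655 and -0.00872 to 0.0358 in WT (30 and 60 against 0 min, 60 against 30 min), -0.0207 to 0.0976 in stn7 at 60 min, 0.0479 to 0.38, 0.57 to 0.62 and 0.30 to 0.39 between genotypes at 0, 30 and 60 min, and -0.0217 to 0.31 for the difference of the 60 min response. The cause of these changes was not tested.

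With the replicate block the calls of both genes held (GC1 stn7 60 against 30 min 1.23, adjusted p 0.000631; FAMA over the 3 times 0.38, adjusted p 0.0062), and 7 of 39 calls of list genes were lost. The block lowered the number of calls for the difference of the 30 min response from 463 to 155 and between genotypes at 30 min from 404 to 265, and 2 of 18 arrays correlated best with their own number. With the within-group component as a covariate the calls in WT at 30 min went from 6267 to 85 and between genotypes at 0 min from 3609 to 3. Counting every pair of a list gene call and an alternative that did not leave out 1 array, the call was lost in 94 pairs, kept in 351 and reversed in 0.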

Other observations

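Plastid division genes were listed because GC1 is also an old name of SULA, and FTSZ2-1 and FTSZ2-2, which form the division ring, were the 2 measured of 13. FTSZ2-1 was higher in stn7 than in WT over the 3 times, by 0.23 (adjusted p 0.0222), and FTSZ2-2 was higher at 0 min by 0.45 (adjusted p 0.0174). These comparisons called 10.1% and 15.9% of all probe sets. The first kept its call in all 18 fits without 1 array (0.20 to 0.25), and lost it with median centring (adjusted p 0.0686) and without both high WT 0 min arrays (0.124). The second lost it without WT 0 min replicate 1 (0.0677) or 3 (0.0939) or stn7 0 min replicate 1 (0.0838) or 2 (0.0597), values that are adjusted p from limma. It was also lost with the within-group component as a covariate (0.471), without both high WT 0 min arrays (0.637) and in the fit of only the groups compared (0.0873).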
